A study of Mus musculus with 12 samples.

Results

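RNA recovered with HP1γ was examined along 1.21 Mb of mouse chromosome 1 (92890000 to 94100000, build mm9), from Lrrfip1 at its low-coordinate end to Hdac4 at its high-coordinate end. The members are all regions of the deposited lists that overlap this window: 18 of the 2609 regions in the list from PMA-treated cells and 32 of the 10013 regions in the list from untreated cells, 50 of 12622 in all. The window was chosen by its number of PMA regions, among the highest of any stretch, so its number of regions is a description and carries no test. The cells are MEF-derived (from mouse embryonic fibroblasts), knocked out for HP1γ (the product of Cbx3) and then recomplemented for its expression, and every group used here carries this background. Treated cells received 100 nM PMA (phorbol 12-myristate 13-acetate, given in DMSO) for 30 min, and the comparison is with untreated cells; a DMSO-only group is not among the samples. In each condition an anti-HP1γ immunoprecipitate (IP) and its chromatin input were sequenced in 3 biological replicates, 12 libraries in all. No mock IP is among these libraries, so RNA bound unspecifically in the IP cannot be told apart from RNA held by HP1γ. The labels name neither the promoter that drives HP1γ nor the number of clones, and fibroblast markers could not be checked in lists of regions.

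HP1γ recognises methylated histone H3 through its chromodomain and is found on heterochromatin and along transcribed genes. In RNAchIP the RNA that stays with immunoprecipitated chromatin is sequenced beside the RNA of the whole chromatin fraction, so a region stands for RNA that was more abundant in the IP than in the input. PMA stands in for diacylglycerol and activates protein kinase C. Lrrfip1 encodes a nucleic acid-binding protein described as a transcriptional repressor at GC-rich DNA and as a cytosolic nucleic acid sensor. Hdac4 encodes a class IIa histone deacetylase that moves between nucleus and cytoplasm according to its phosphorylation. In the RefSeq table of another build, GRCm38.p6, 13 other protein-coding genes lie between them, among them Rbm44, Ramp1 (an accessory subunit of receptors for calcitonin gene-related peptide), Scly (selenocysteine lyase), Per2 (a core repressor of the circadian clock), Asb1 and Twist2 (a transcription factor of mesenchymal cells), in this order. That table gives names and neighbours only. The spans used here for Lrrfip1 (about 92.9 to 93.03 Mb) and Hdac4 (about 93.83 to 94.09 Mb) are approximate mm9 positions. No region was assigned to an exon, intron or UTR or to a gene in between. The lists carry no strand, so RNA of a gene and of an antisense transcript cannot be told apart.

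Each region was joined by the authors from at least 3 member peaks, a member peak being a peak called in 1 replicate. Its fold enrichment, the signal in the IP over that in the input, is the authors' value per region and is read as the mean over its member peaks. The lists hold no value per library, so no region has a replicate error, read depth is unknown, and no change at any region could be tested. The member peaks of the PMA list come from replicates 2 and 3 only, and those of the untreated list from replicates 1, 2 and 3. A region called once in each of 3 replicates reaches 3 member peaks, whereas a PMA region needs at least 2 peaks from the same replicate. In the window 20 of 32 untreated regions had exactly 1 peak per replicate, against 69.9% of the whole untreated list. With untreated replicate 1, 2 or 3 left out and at least 3 member peaks still required, 8, 9 and 8 untreated regions remained in the window. The direction of the difference, 18 PMA against 32 untreated regions, thus turned to 18 against 8 or 9 when each list drew on 2 replicates. The whole lists turned in the same way, from 2609 PMA against 10013 untreated regions to 2609 against 1505, 1988 and 2367, so the turn is not particular to the window.

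The regions did not form a single cluster. They lay densely in the Lrrfip1 stretch (92890000 to 93030000) and sparsely between the genes. In the Hdac4 stretch (93830000 to 94100000) nearly all lay near its low-coordinate end. The Lrrfip1 stretch held 10 PMA and 16 untreated regions, or 71.4 and 114 per Mb, where the whole lists averaged 1.02 and 3.93 per Mb. The Hdac4 stretch held 4 and 8, or 14.8 and 29.6 per Mb averaged over its 0.27 Mb. Of these, 4 PMA and 7 untreated regions lay within 59.3 kb, so the average understates how densely they lay there. The 0.8 Mb between the 2 stretches also held 4 and 8 (5.0 and 10.0 per Mb). When regions at most 10 kb apart were put in 1 group, the 18 PMA regions fell into 10 groups, with 12 regions in 4 groups of 2 or more and 6 alone. The 32 untreated regions fell into 14 groups, with 23 regions in 5 groups of 2 or more and 9 alone. In the whole lists 42.1% of PMA and 63.7% of untreated regions had such a neighbour. The largest PMA group had 4 regions and the largest untreated group 14, both in the Lrrfip1 stretch. Without untreated replicate 1, 2 or 3 the largest untreated group had 3 regions, fewer than the 4 after PMA, and with gaps of at most 5 kb the largest groups had 2 PMA and 6 untreated regions. These were not the largest of their lists, which reached 14 regions after PMA and 41 in untreated cells, and 54 PMA and 23 untreated groups were at least as large as those here.

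**Figure D1:**
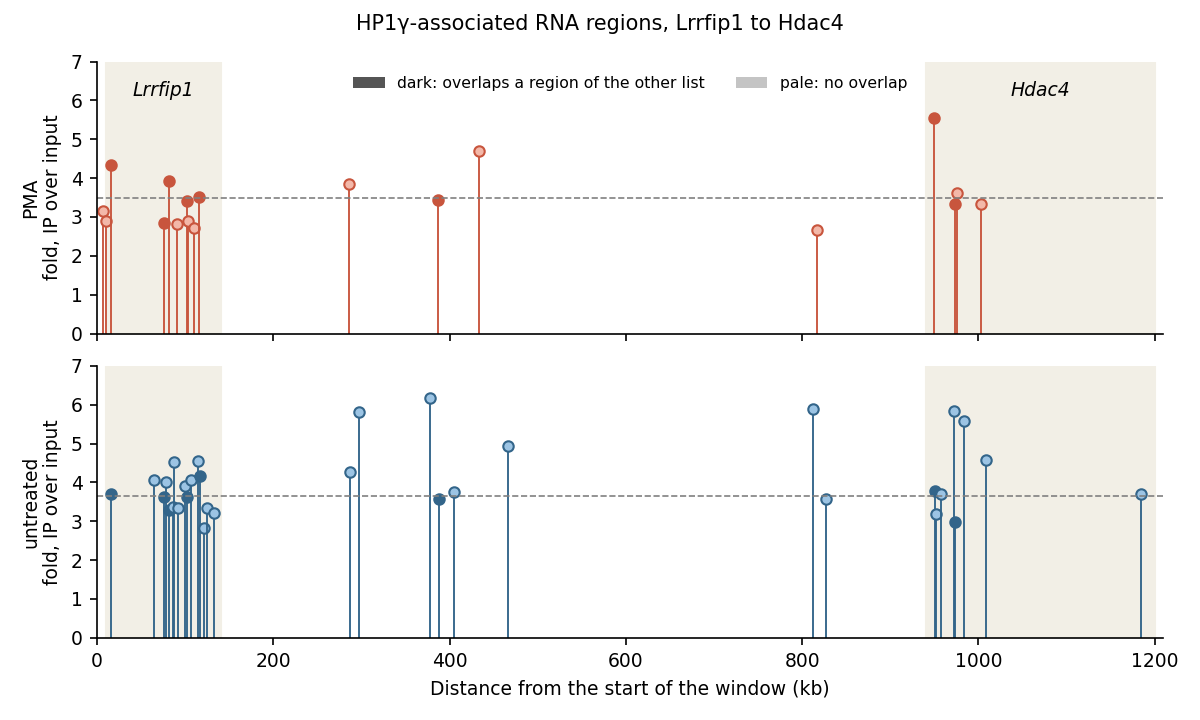
Fold enrichment of IP over input (y axis) of each region against its distance in kb from the start of the window (x axis), for 18 PMA regions (upper panel) and 32 untreated regions (lower panel). Shaded spans mark Lrrfip1 and Hdac4, dark points overlap a region of the other list and pale points do not. Dashed lines are the whole-list medians of 3.5 and 3.65. Both lists crowd into the Lrrfip1 span, and the 5 highest untreated points are pale, as are 24 of all 32.

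In the Lrrfip1 stretch the PMA regions formed 3 groups and the untreated regions mainly 1. The first PMA group held 3 regions over 9.995 kb (92896482 to 92906476) at the low-coordinate edge of the gene. The first of these (92896482 to 92897200) lies before the approximate span and the second reaches across its start; the span is given only to the nearest 10 kb. Both Lrrfip1 promoters in the RefSeq table are on the plus strand of GRCm38.p6, so this edge is taken to be its 5′ side. The second PMA group held 3 regions over 15.3 kb (92965870 to 92981150) and the third 4 regions over 14.5 kb (92992028 to 93006508). In untreated cells 1 region lay at the edge (92905771 to 92906521), 1 alone further in (92953914 to 92954137), and 14 in a group of 56.9 kb (92965858 to 93022758), of which region sequence covered 18.1%. All 7 PMA regions of the second and the third group lay within the bounds of this untreated group, and 4 of them overlapped one of its regions. The untreated group went on beyond the last PMA region with 3 more regions, among them the widest of the window, 1661 bp (93010933 to 93012593), with a fold of 2.81 and 2 member peaks from each replicate. By the peak numbers explained below, 14 and 16 peaks of PMA replicates 2 and 3 were called and not joined in the 168.6 kb PMA gap around these 3. Where in the gap they lay is not shown.

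At the edge of Lrrfip1 the PMA list had more regions than the untreated list. After PMA 3 regions lay there, at folds of 3.15 (92896482 to 92897200), 2.91 (92899450 to 92900037) and 4.34 (92905720 to 92906476). The untreated list had a partner for the third alone, at a fold of 3.69, and none for the first 2, which lay 8570 and 5733 bp from it. In the whole PMA list 1178 of 2609 regions had no untreated partner. Each of these 2 was joined from 1 peak of replicate 2 and 2 of replicate 3, with mean −log10 q of 3.08 and 2.19. Their folds were low in the list, where 33.3% and 23.2% of PMA regions lay at or below them. Member peaks are numbered in order along the chromosome within each replicate, so, if the caller numbered its peaks without gaps, the numbers that are skipped count peaks that were called but joined in no region. The order of the numbers was checked, and their completeness could not be. In the 169.9 kb without an untreated region before this partner, 18, 0 and 7 such peaks were called in untreated replicates 1, 2 and 3. By this numbering untreated replicate 2 had no called peak at the positions of these 2 PMA regions, while for replicates 1 and 3 the lists do not show where in the gap their peaks lay.

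**Figure D2:**
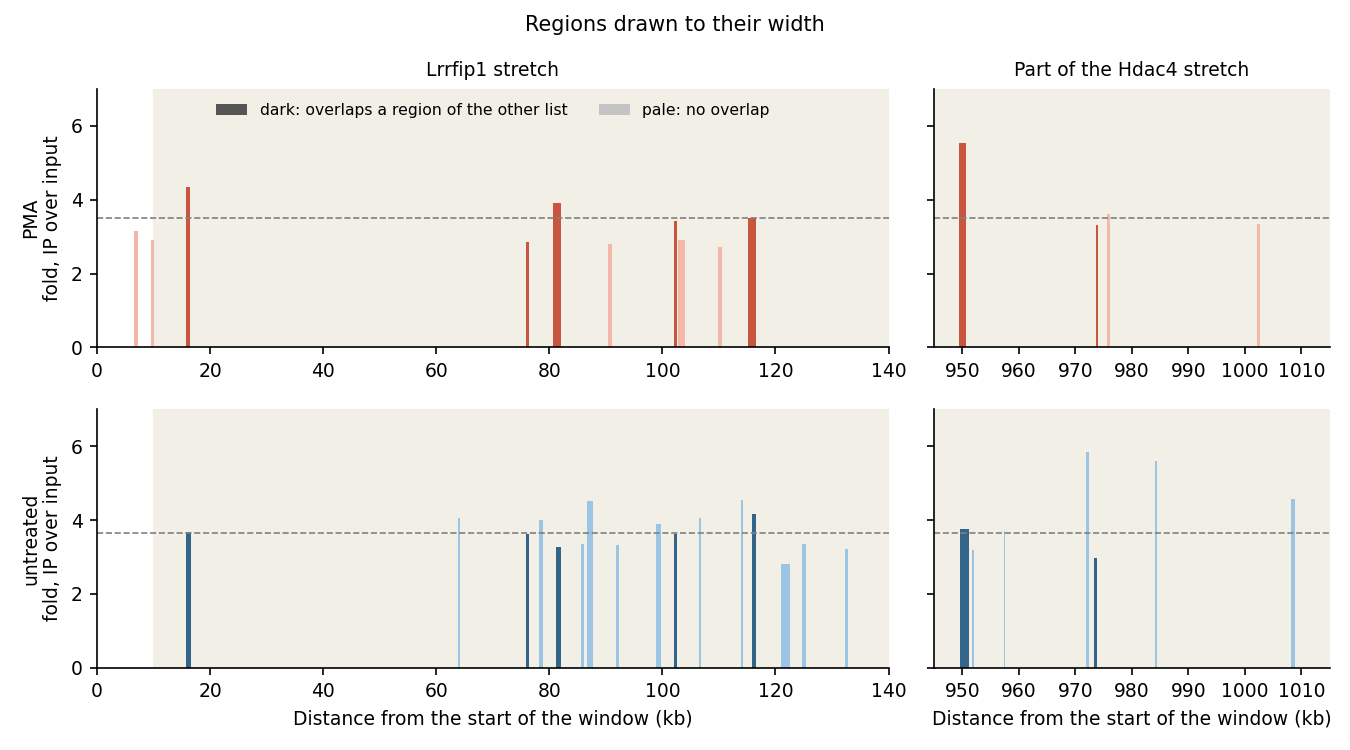
Regions of the Lrrfip1 stretch (left panels) and of the low-coordinate part of the Hdac4 stretch (right panels), drawn to their width along the distance in kb from the start of the window (x axis), with fold enrichment of IP over input as height (y axis), PMA above and untreated below. Dark bars overlap a region of the other list, pale bars do not, shading marks the approximate gene spans and dashed lines the whole-list medians. At the left edge stand 2 PMA regions without an untreated partner, among 5 such regions in the Lrrfip1 stretch.

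Folds in the Lrrfip1 stretch were moderate in both lists. The 10 PMA regions had a median fold of 3.03 (2.71 to 4.34), and 7 of them were below the median of the whole PMA list, 3.50. The 16 untreated regions had a median fold of 3.66 (2.81 to 4.54), with 8 above and 8 below the whole-list median of 3.65. The strongest PMA region here was the one at the edge, at 4.34, followed by a region of 1460 bp (92970578 to 92972037) at 3.92, which is the widest PMA region of the window and has its highest mean −log10 q, 13.1. The lowest folds after PMA were 2.71 (92999858 to 93000553), 2.81 (92980302 to 92981150) and 2.85 (92965870 to 92966342), and a region of 1215 bp (92992825 to 92994039) had 2.90. The strongest untreated regions here were at 4.54 (93003968 to 93004291, 324 bp) and 4.52 (92976678 to 92977751, 1074 bp), and neither overlapped a PMA region. Their mean −log10 q of 7.13 and 7.82 were among the 3 highest of the untreated regions in the window.

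Between the genes 4 PMA and 8 untreated regions were spread over 0.8 Mb, and only 1 of each list met. The PMA regions lay alone, at folds of 3.85 (93175075 to 93175598), 3.45 (93276793 to 93277821), 4.71 (93322606 to 93323261) and 2.66 (93706473 to 93707044). Of the 8 untreated regions, 4 formed 2 groups of 2 and 4 lay alone, and their median fold was 4.60 (3.58 to 6.17), with 6 above the whole-list median. The widest of them (93716703 to 93717777) spanned 1075 bp at a fold of 3.58. The highest untreated fold of the window, 6.17, was here (93267821 to 93268706, 886 bp), and 97.8% of the untreated list lay at or below it. Next came 5.88 (93702075 to 93702698), with the highest mean −log10 q of the untreated regions, 8.95, and then 5.81 (93186950 to 93187661). None of these 3 overlapped a PMA region. The PMA region at 4.71 was the farthest from any untreated region, 27262 bp, and in the untreated gap of 60.3 kb around it 4, 1 and 2 unjoined peaks were called in replicates 1, 2 and 3. Both lists were empty over a long stretch, 383.2 kb after PMA (from 93323261 to 93706473) and 346.2 kb in untreated cells (from 93355883 to 93702075). Peaks were called in these gaps without being joined. They were 10 and 18 in PMA replicates 2 and 3 over the 383.2 kb gap. Over the 346.2 kb gap they were 16, 3 and 0 in untreated replicates 1, 2 and 3. The longer PMA gap also holds 2 untreated regions, so these counts cover unlike intervals.

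In the Hdac4 stretch the regions kept to the low-coordinate end of the gene. All 4 PMA regions and 7 of 8 untreated regions lay within 59.3 kb (93839470 to 93898787). The RefSeq table places the Hdac4 promoter on the minus strand of GRCm38.p6, so this end is taken to be the 3′ side. The remaining untreated region (94073593 to 94074364, fold 3.69) stood alone 174.8 kb further on, and in the gap before it 34, 8 and 5 peaks of untreated replicates 1, 2 and 3 were called and not joined. The strongest PMA region of the window was in Hdac4 (93839470 to 93840644, 1175 bp), with a fold of 5.54 and a mean −log10 q of 9.9; 96.4% of the PMA list lay at or below this fold. The other 3 PMA regions had folds of 3.33 (93863588 to 93864067), 3.62 (93865626 to 93866093) and 3.34 (93892183 to 93892681) and mean −log10 q of 2.07 to 2.30. The 8 untreated regions had folds of 2.98 to 5.85 with a median of 3.73. The highest, 5.85 (93861929 to 93862496) and 5.59 (93874041 to 93874419), lay close to PMA regions, 1091 and 7947 bp away, without overlap. An untreated group of 3 regions over 7.998 kb (93839612 to 93847609) overlapped the strongest PMA region. Of the 18 PMA regions in the window, 0 had a mean −log10 q under 1.30, which is −log10 of 0.05, where 2.45% of the whole PMA list had. Of the 32 untreated regions, 2 had one under this value, where 3.34% of the whole untreated list had. Both were in Hdac4, at 1.21 (93841674 to 93842054) and 0.799 (93863218 to 93863850).

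**Figure D3:**
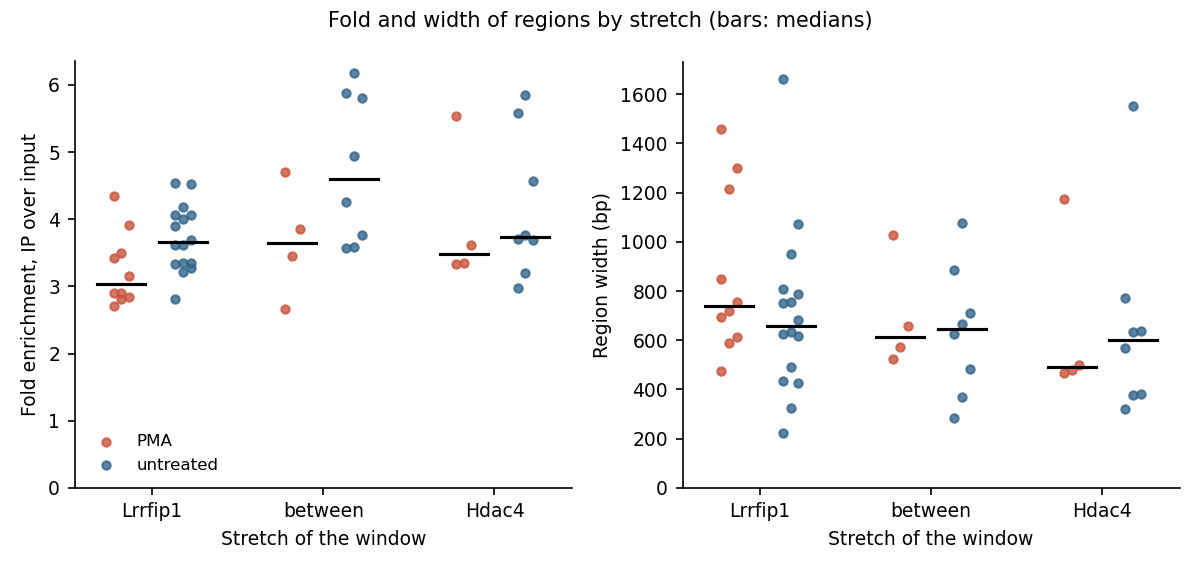
Fold enrichment of IP over input (left) and width in bp (right) of each region by stretch of the window, PMA left of untreated, with bars at the medians. In the Lrrfip1 stretch the medians are 3.03 after PMA and 3.66 untreated, and the values overlap in every stretch.

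A partner in the untreated list, sharing 1 bp or more, was found for 8 of the 18 PMA regions, or 44.4% (exact Clopper-Pearson 95% interval 21.5 to 69.2, which covers counting error only), where 54.8% did so in the whole PMA list. Of the 32 untreated regions, 8 overlapped a PMA region, or 25.0% (11.5 to 43.4), where 15.5% did so in the whole untreated list. Both whole-list shares lie inside these intervals. Neighbouring regions are not replicates, so this is no test of the window against the list. The 8 pairs shared 263 to 1033 bp, 5 of them in Lrrfip1, 1 between the genes and 2 in Hdac4. The PMA fold was the higher of the pair in 4 and the lower in 4, against 43.5% higher over all PMA regions with a partner. The PMA region was the wider in 4 of 8, against 70.9% in the whole list.

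In Lrrfip1 the first pair, at the edge, had folds of 4.34 after PMA and 3.69 untreated. The second (92965870 to 92966342 after PMA) had 2.85 and 3.62, and the third, the widest PMA region, 3.92 and 3.28. The fourth (92992028 to 92992641) had 3.42 after PMA and 3.62 untreated, and the fifth (93005209 to 93006508, 1300 bp after PMA) 3.50 and 4.18. The fifth pair had 5 member peaks in either list, the most of any PMA region in the window. The sixth pair, between the genes, had 3.45 after PMA and 3.58 untreated. The pairs thus differed in both directions within the same gene, from -0.774 to 0.653 (PMA minus untreated).

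The largest difference was in Hdac4. The seventh pair had a fold of 5.54 after PMA and 3.77 untreated, a difference of 1.77, and a mean −log10 q of 9.9 and 3.56. Its PMA region was joined from 3 peaks (2 of replicate 2 and 1 of replicate 3) and its untreated partner from 6 peaks (2 of each replicate) over 1554 bp. Read as means, the folds are thus taken over different numbers of peaks. The eighth pair (93863588 to 93864067 after PMA) had 3.33 and 2.98.

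**Figure D4:**
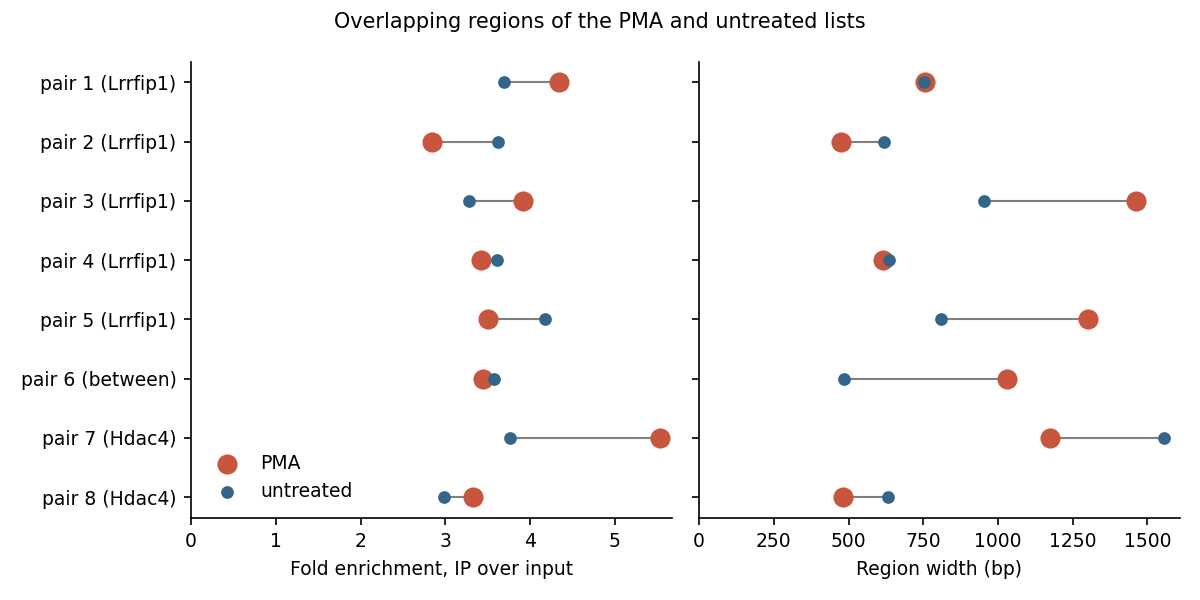
Fold enrichment of IP over input (left) and width in bp (right) of the 8 pairs of overlapping regions, each line joining the PMA region (large points) to its untreated partner (small points). Pair 7 in Hdac4 stands apart in fold, at 5.54 after PMA and 3.77 untreated, and PMA regions are the wider ones in 4 of 8 pairs.

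Regions without a partner were set against their distance to the other list, which the choice of a crowded window makes short. Of the 10 PMA regions that overlapped no untreated region, 9 lay within 10 kb of one (61.6% of such PMA regions in the whole list) and 2 within 1 kb, and their median fold was 3.03 (2.66 to 4.71), against 3.48 (2.85 to 5.54) for the 8 with a partner. Of the 24 untreated regions that overlapped no PMA region, 18 lay within 10 kb of one (29.2% of such untreated regions in the whole list) and 2 within 1 kb. The median fold of these 24 was 4.03 (2.81 to 6.17), against 3.62 (2.98 to 4.18) for the 8 with a partner. These medians rest on 8 to 24 regions each and have no whole-list value beside them, so they are not read as a trait of the window. The 5 untreated regions with the highest folds of the window, 5.59 to 6.17, all lacked a PMA partner, as did 8458 of 10013 in the whole untreated list. Of the 5 PMA regions with the highest folds, 3 had an untreated partner, as did 1431 of 2609 in the whole PMA list. By the peak numbers, each PMA gap that holds these 5 untreated regions had peaks that were called and not joined. They came to 7 to 13 per gap in PMA replicate 2 and 11 to 22 in replicate 3, at unknown positions.

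Widths over the window had a median of 676 bp after PMA (468 to 1460) and 634 bp in untreated cells (224 to 1661), where the whole lists had 780 and 528 bp. After PMA 15 regions had 3 member peaks, 2 had 4 and 1 had 5, so 3 of 18 had 4 or more, against 16.4% of the list. More peaks came from replicate 3 than from replicate 2 in 9 of 18 regions (38.3% of the list), fewer in 7 and as many in 2. In untreated cells 9 of 32 regions had 4 or more member peaks (22.5% of the list), up to 6 in the widest Lrrfip1 region and in the Hdac4 region of the seventh pair. All replicates were represented in 29 of 32 (91.9% of the list). The other 3 were 2 regions in Lrrfip1, of which 1 lacked replicate 3 (92968191 to 92968871) and 1 replicate 2 (92991976 to 92992610), and 1 in Hdac4 that lacked replicate 2 (93863218 to 93863850).

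On the same assumption, the peak numbers gave a count of called peaks in each replicate over stretches bounded by the same pairs in both lists. From the first to the fifth pair, 100.8 kb within Lrrfip1, 41 and 52 peaks were called in PMA replicates 2 and 3, and 48, 35 and 25 in untreated replicates 1, 2 and 3. The groups overlapped, since untreated replicate 1 lay between the PMA replicates. From the fifth to the sixth pair, 272.6 kb, the counts were 33 and 43 after PMA, and 43, 30 and 23 untreated. From the sixth to the seventh pair, 563.9 kb, they were 39 and 60 after PMA, and 48, 30 and 21 untreated. Over the whole 934.9 kb from the first to the seventh pair, 109 and 151 peaks were called after PMA, and 136, 92 and 66 untreated. Replicates also differed in their totals. The highest peak number of the lists was 49502 and 92243 in PMA replicates 2 and 3, and 87348, 40773 and 33450 in untreated replicates 1, 2 and 3. Per 10000 of these highest numbers the stretch held 22.0 and 16.4 peaks after PMA, and 15.6, 22.6 and 19.7 untreated, again with overlapping groups. With 2 and 3 replicates, overlapping counts cannot show whether the conditions differ in their number of called peaks. From the called peaks of this stretch 13 PMA and 25 untreated regions were joined. Of the called peaks in this stretch, 19.3% and 13.9% were joined in regions in PMA replicates 2 and 3, and 22.8%, 32.6% and 43.9% in untreated replicates 1, 2 and 3. Over the whole lists, member peaks came to 8.85% and 4.34% of the highest peak number in the PMA replicates, and to 13.6%, 27.1% and 31.3% in the untreated replicates, so the order of the replicates was the same. The part of the joining rule and of the number of replicates in the difference between 13 and 25 regions was not tested.

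**Figure D5:**
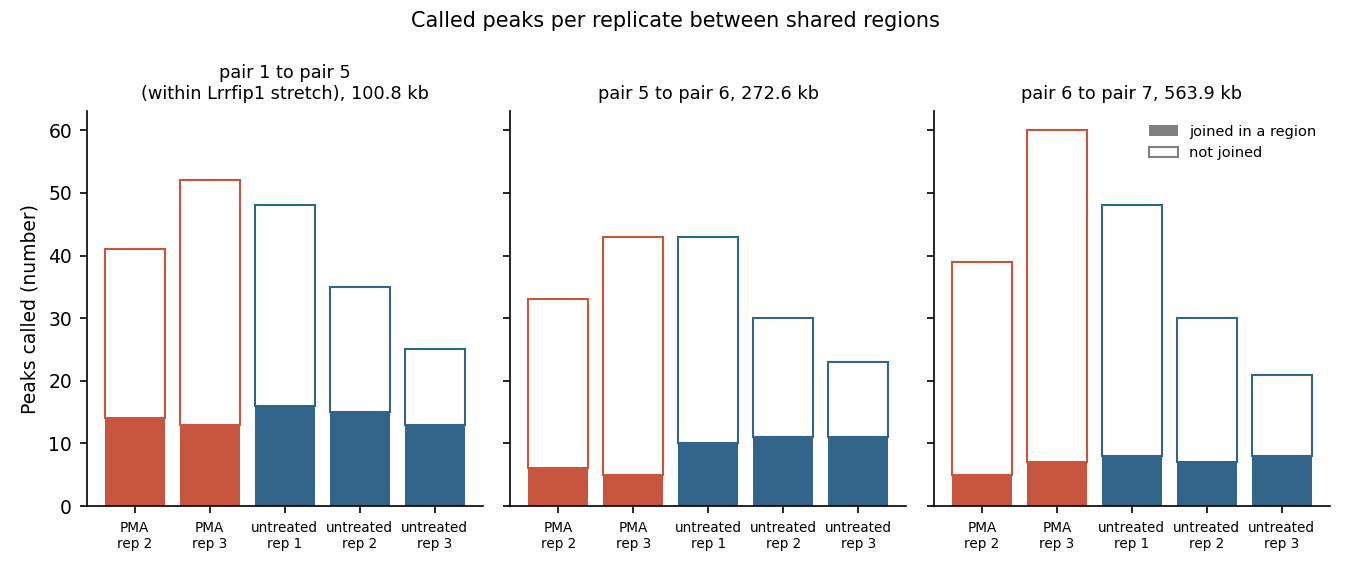
Number of peaks called (y axis) in each replicate, PMA left of untreated (x axis), over 3 stretches bounded by pairs of overlapping regions; filled parts were joined in a region and open parts were not. In each stretch untreated replicate 1 reaches at least as high as PMA replicate 2, while untreated replicate 3 is the lowest.

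Called peaks lay closer together in Lrrfip1 than between the genes, which follows in part from bounding the stretch by pairs in a crowded part of a window chosen for its regions. Over the 100.8 kb in Lrrfip1 they came at 40.7 and 51.6 per 100 kb in PMA replicates 2 and 3, and at 47.6, 34.7 and 24.8 per 100 kb in untreated replicates 1, 2 and 3. From the sixth to the seventh pair they came at 6.92 and 10.6 per 100 kb after PMA, and at 8.51, 5.32 and 3.72 untreated. Crowding was not particular to Lrrfip1. From the first to the last PMA region of the Hdac4 stretch, 53.21 kb, they came at 47.0 and 56.4 per 100 kb in PMA replicates 2 and 3. Between the untreated regions of that stretch, 234.8 kb out to the lone region, they came at 27.3, 10.6 and 8.52 in untreated replicates 1, 2 and 3. These bounds differ between the lists.

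Stretches of the same length were also placed at their fullest along every chromosome by their number of PMA regions, so these numbers are a description with no test. On chromosome 1 such a window (92715681 to 93892681) took in 3 PMA regions from before the bounds used above and held 21 PMA and 35 untreated regions, the second highest PMA number. The highest was 22, on chromosome 10 (38739990 to 39617090), with 46 untreated regions. There were 3 windows with 19 PMA regions, on chromosome 7 (103702443 to 104533973) with 40 untreated regions and on chromosome 14 with 50 (26281179 to 26567498) and 68 (69863794 to 70712461). Of the PMA regions, 52.4% had an untreated partner in the chromosome 1 window placed this way, 50% in that on chromosome 10, 63.2% on chromosome 7, and 68.4% and 78.9% on chromosome 14.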

How the data were processed

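The data are 2 deposited lists in narrowPeak layout, 1 per condition, each of HP1γ IP against input. The submitters' processing notes list MACS2 2.1.0, STAR 2.5.0a, cutadapt 1.11, featureCounts 1.4.6-p3, deepTools and the build mm9 without roles, and caller settings were not found in the labels or files. Per the labels' protocols, libraries were directional total RNA. The deposited fold ratio, −log10 q, the score and the summit offset are read as means over member peaks, which is an assumption. The score times the number of member peaks was within 0.001 of a whole number in 100.0% of regions of both lists. A score that is itself a whole number passes this check too, so the check cannot settle the reading. The other columns were not checked in this way. Read depth is unknown.

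Regions overlapping the window were taken from both lists, joined into groups at gaps of at most 10 kb, and paired across lists at an overlap of at least 1 bp, with Python 3.11.15, pandas 2.3.3, numpy 2.4.6, scipy 1.17.1 and matplotlib 3.10.9. The Lrrfip1 stretch runs from the window's start and the Hdac4 stretch to its end. Called peaks were counted from peak numbers, taken to be consecutive, which rose along chromosome 1 without exception in each replicate. The code recovered the known groups, overlaps and counts of simulated lists. Named regions are all PMA regions of the window with their partners, and per list the 5 highest by fold, 3 widest, 3 with most member peaks and 3 highest by −log10 q, plus others that a count of 5 or fewer needs. The window, members and lists were chosen with earlier results of these data known. The planned model over libraries was not run, since the lists hold no values per library. No genome of mm9 was used, so no sequence is shown.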

Additional observations from a re-analysis of the deposited data

How the results depend on the processing

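Of 103 alternative values for 14 results, 70 stayed within 1.5 times a count or within the 95% interval (member peaks: 1 SD) and 33 moved. All but 6 of the moved values came from leaving out a replicate with at least 3 member peaks still required, which by its construction keeps fewer regions. The PMA regions then ranged from 0 to 18, their groups of 2 or more from 0 to 4, their largest group from 1 to 4, their median width from 676 to 1300 bp and their share with a partner from 11.1% to 100%. Without PMA replicate 2 no region was left, and without PMA replicate 3 a single one. The untreated regions ranged from 8 to 9, their groups from 1 to 2, their median width from 798 to 941 bp and their share with a partner from 0% to 55.6%, with 3 regions in the largest group each time. PMA replicate 1 has no member peaks, so leaving it out changed nothing. With gaps of at most 5 kb the largest groups had 2 PMA and 6 untreated regions, and with gaps of at most 20 kb the largest PMA group had 7. With −log10 q of 3 or more, and likewise within the gene spans alone, 3 untreated groups of 2 or more remained. In an untreated list cut to the length of the PMA list by −log10 q, 12 untreated regions lay in the window, fewer than the 18 after PMA. Median (or mean) folds stayed within their intervals under every alternative run, at 3.34 to 3.50 after PMA and 3.58 to 4.09 untreated. Leaving out a replicate only removed regions, and those kept had their listed fold and width, from all their member peaks. Neither fold nor width was recomputed, so whether they depend on a replicate was not tested. No paired analysis was possible because the lists hold no values per library. Since read depth is unknown, no floor could be given for a stretch without a region.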

Other observations

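Within 200 kb before the window lay another dense group, mostly at low folds. It held 3 PMA regions (92715681 to 92726139) with folds of 1.74 to 2.28, below every PMA region of the window. All 3 overlapped an untreated region. It also held 7 untreated regions (92713989 to 92735821) with folds of 2.06 to 3.71. The fold of 3.71 was that of the last of them (92734924 to 92735821), above the median of the whole untreated list, 3.65. An untreated region of 6007 bp there (92720241 to 92726247) was joined from 15 member peaks and overlapped PMA regions of 2935 and 2089 bp.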
